A study of Mus musculus with 167 samples.

Results

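Cxcl13, Cxcl1, Cxcl9, Cxcl10, Ccl2, Ccl5 and Il1b are 7 mouse genes for secreted inflammatory proteins: 6 chemokines and the cytokine interleukin 1 beta. They were taken as a named list, 7 of the 39179 genes in the tables, and all 7 passed the filter on low counts in every comparison. Their mRNA was measured in 24 wild-type and 143 knock-in polyA RNA sequencing libraries of liver from C57BL/6 mice, in 21 groups of genotype and age. The genotypes were wild type and 6 lines of heterozygous knock-in mice, in which 1 copy of the huntingtin gene Htt carries a CAG repeat of 20, 80, 92, 111, 140 or 175 units (Q20, Q80, Q92, Q111, Q140 and Q175). Livers were collected at 2, 6 and 10 months. The design asks how expression moves with the length of the repeat, and each group had 8 libraries, with 4 from females and 4 from males, except for Q80. Q80 had 3 females and 5 males at 2 months by its labels, and 4 females and 3 males at 10 months. Libraries are named here by line, sex (F or M) and the replicate number of the labels. The wild types were housed with Q20 mice and each line with its own kind, so genotype and housing cannot be told apart for the other lines. The labels number the libraries of a group but do not say that each came from a separate animal, so p-values measure the spread between libraries.

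Chemokines are small proteins that attract leukocytes by binding G-protein-coupled receptors. Cxcl13 binds Cxcr5 and draws B cells, Cxcl1 binds Cxcr2 and draws neutrophils, Cxcl9 and Cxcl10 are interferon-gamma-induced ligands of Cxcr3 on activated T cells and NK cells, Ccl2 binds Ccr2 and recruits monocytes, and Ccl5 draws T cells and monocytes and is made largely by T cells and NK cells. Il1b is made by activated macrophages and monocytes as a precursor that the inflammasome cuts, and it signals through Il1r1 and Il1rap. In the liver the resident macrophages are the Kupffer cells, which line the sinusoids, and hepatocytes make Cxcl1 during the acute phase response. In bulk tissue, fewer cells of a type and less RNA per cell cannot be told apart.

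In GENCODE M21 (GRCm38), 4 of the genes lie on chromosome 5. Cxcl13 (ENSMUSG00000023078) spans 95956951 to 95961068 on the plus strand and Cxcl1 (ENSMUSG00000029380) 90891241 to 90893115 on the plus strand. Cxcl9 (ENSMUSG00000029417) spans 92321347 to 92328079 and Cxcl10 (ENSMUSG00000034855) 92346638 to 92348889, both on the minus strand. Ccl2 (ENSMUSG00000035385) and Ccl5 (ENSMUSG00000035042) are on chromosome 11, at 82035571 to 82037453 on the plus strand and 83525778 to 83530518 on the minus strand. Il1b (ENSMUSG00000027398) is on chromosome 2, at 129364570 to 129371139 on the minus strand. Cxcl9 and Cxcl10 are thus close neighbours on the same strand.

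Promoter sequence was at hand for 5 of the 7 genes and is shown because genes of this list are textbook targets of NF-kB (kappa B sites) and of interferon-activated factors (ISRE and GAS elements). Each window holds the 250 bases before the transcription start, from RefSeq (GRCm38.p6), written 5′ to 3′ on the gene's strand. Capitals mark matches to a kappa B motif GGGANNTTC (either strand), an ISRE core GAAANNGAA (either strand) or a TATA box TATAAA (the gene's strand). Coordinates are chr5:95956689-95956938 (plus) for Cxcl13, chr5:90890995-90891244 (plus) for Cxcl1, chr5:92328080-92328329 (minus) for Cxcl9, chr5:92348890-92349139 (minus) for Cxcl10 and chr2:129371140-129371389 (minus) for Il1b.
Cxcl13: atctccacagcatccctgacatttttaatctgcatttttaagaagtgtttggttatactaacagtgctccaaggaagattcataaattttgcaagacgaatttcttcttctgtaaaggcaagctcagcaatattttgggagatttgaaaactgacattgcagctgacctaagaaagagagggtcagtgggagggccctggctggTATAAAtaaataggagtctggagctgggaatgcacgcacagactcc
Cxcl1: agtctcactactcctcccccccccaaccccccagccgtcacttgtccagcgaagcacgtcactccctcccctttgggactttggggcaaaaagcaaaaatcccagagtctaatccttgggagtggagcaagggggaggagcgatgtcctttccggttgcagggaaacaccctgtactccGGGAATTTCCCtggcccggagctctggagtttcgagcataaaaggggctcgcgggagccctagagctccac
Cxcl9: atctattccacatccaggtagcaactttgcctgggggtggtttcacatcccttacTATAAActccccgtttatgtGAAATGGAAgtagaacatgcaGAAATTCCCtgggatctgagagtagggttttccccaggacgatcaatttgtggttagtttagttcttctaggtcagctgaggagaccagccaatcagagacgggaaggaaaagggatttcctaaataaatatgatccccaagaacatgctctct
Cxcl10: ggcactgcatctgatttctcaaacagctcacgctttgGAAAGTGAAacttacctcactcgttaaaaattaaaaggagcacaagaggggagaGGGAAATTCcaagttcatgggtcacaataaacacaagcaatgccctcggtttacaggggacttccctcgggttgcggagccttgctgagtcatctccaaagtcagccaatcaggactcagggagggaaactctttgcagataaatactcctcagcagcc
Il1b: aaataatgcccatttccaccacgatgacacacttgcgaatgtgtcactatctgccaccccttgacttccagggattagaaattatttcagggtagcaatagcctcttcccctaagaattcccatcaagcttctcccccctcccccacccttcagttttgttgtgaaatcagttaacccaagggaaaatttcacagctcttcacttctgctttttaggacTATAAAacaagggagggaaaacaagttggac
The kappa B motif was found in 3 of the 5 windows (Cxcl1, Cxcl9 and Cxcl10), and 3.23% of all 32851 promoter windows of 250 bases hold it. In Cxcl1 the capitals cover 2 overlapping matches, on opposite strands, from 71 to 61 bases before the start. The kappa B match of Cxcl9 lies 154 to 146 and that of Cxcl10 159 to 151 bases before the start. The ISRE core was found in Cxcl9 (from 175 bases before the start) and Cxcl10 (from 213 bases before the start), against 7.13% of all windows. The letters TATAAA were found in Cxcl13, Cxcl9 and Il1b, against 7.59% of all windows. They lie 46 to 41 bases before the start in Cxcl13 and 31 to 26 in Il1b, but 195 to 190 in Cxcl9. The GAS element TTCNNNGAA (either strand) was found in 0 of the 5 windows and in 7.02% of all. These are matches of letters and not binding sites.

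All 7 genes were expressed at low levels, at a few CPM, or counts of a gene scaled to the size of the library. On the FPKM scale, which divides by gene length, the median over all libraries was 3.86 for Cxcl1, 2.46 for Cxcl9, 2.01 for Il1b, 1.97 for Cxcl10, 1.65 for Cxcl13, 1.11 for Ccl5 and 0.620 for Ccl2. In CPM (normalized), the scale of all levels from here on, Cxcl13 ran from 0.419 over a median of 1.93 to 21.1, and Il1b from 0.303 over 2.64 to 14.5. Cxcl1 ran from 1.11 over 3.61 to 161, the widest range of the 7. The other ranges were 2.29 to 43.0 for Cxcl9 (median 6.93), 0.524 to 7.81 for Cxcl10 (median 2.09), 0.131 to 5.71 for Ccl2 (median 0.498) and 0.157 to 6.06 for Ccl5 (median 0.597). These levels rest on few reads: the median count per library was 19 for Ccl2, 24 for Ccl5, 76 for Cxcl13, 82 for Cxcl10, 106 for Il1b, 152 for Cxcl1 and 271 for Cxcl9, and the lowest count was 5, in Ccl2 and Ccl5.

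When the 21 groups were put in order of their mean, Cxcl13 was highest in Q20 at 6 months (6.26 CPM) and lowest in the wild type at 2 months (1.43 CPM). Il1b was highest in Q20 at 6 months (5.86 CPM) and lowest in Q175 at 6 months (2.01 CPM). Cxcl9 and Ccl5 were both highest in Q140 at 6 months, at 13.3 and 1.98 CPM, and lowest in Q111, Cxcl9 at 6 months with 5.22 CPM and Ccl5 at 2 months with 0.527 CPM. Cxcl10 and Ccl2 were both highest in the wild type at 6 months, at 3.16 and 1.47 CPM, with their lowest means in Q92 at 10 months (1.64 CPM) and Q140 at 2 months (0.411 CPM). Cxcl1 was highest in Q111 at 10 months (24.3 CPM) and lowest in Q175 at 2 months (2.19 CPM). The Q111 mean rests on M1, without which it was 4.85 CPM (n = 7) and Q20 at 6 months the highest (21.1 CPM). That Q20 mean in turn holds M4 at 111 CPM, against a group median of 6.46 CPM. Few libraries also weigh on other highest means. They were WT M2 for Ccl2 (4.89 CPM, group median 0.926) and Q140 M3 for Cxcl9 (43.0 CPM, median 8.66). For Ccl5 they were Q140 M3 and F2 (6.06 and 5.91 CPM, median 0.675), and for Cxcl13 Q20 F1 and F4 (19.3 and 13.2 CPM, median 3.40). In each of the 7 orders, 0 of the 20 steps between neighbouring groups exceeded the larger SD of the pair. Neighbours in a sorted order lie close by construction, so this does not compare groups farther apart.

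**Figure D1:**
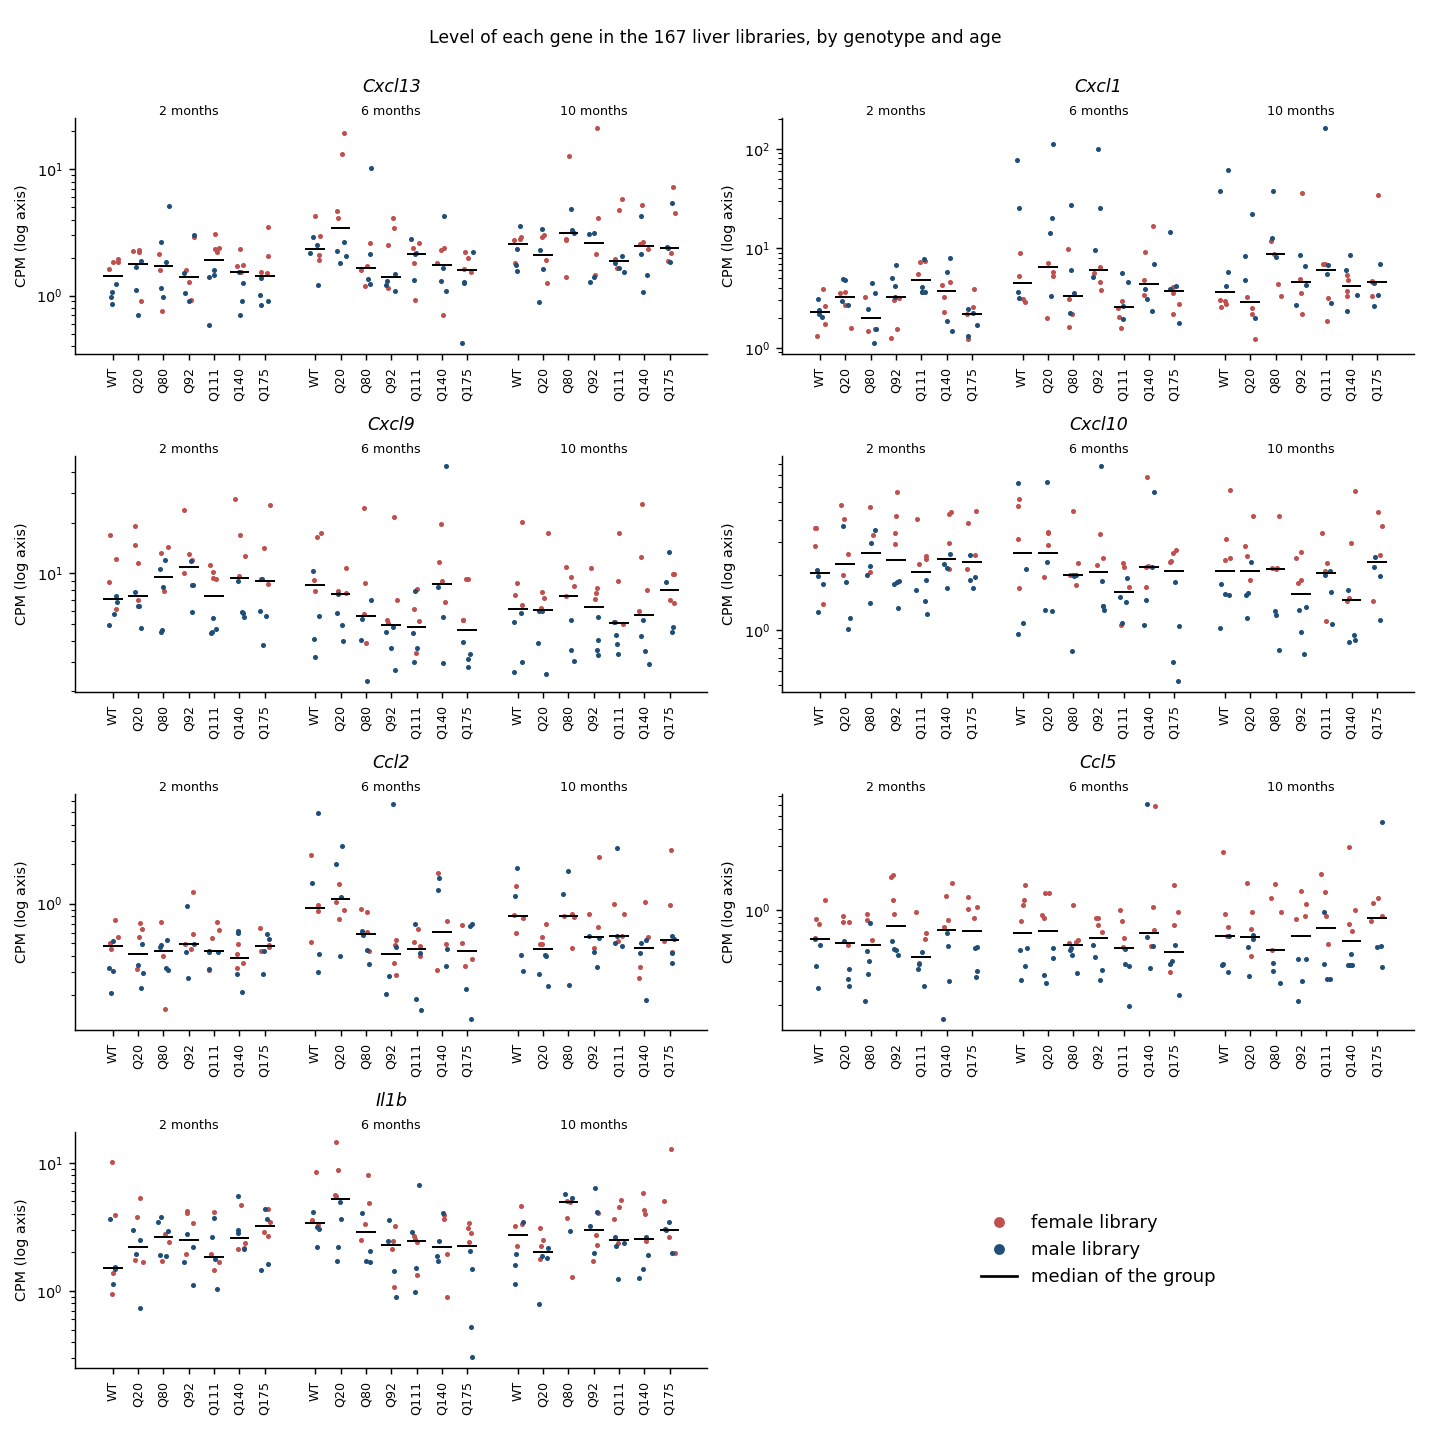
Level of each gene in every library, in CPM on a log axis, by genotype and age; red points are females, blue points males and the line is the group median. Most groups overlap, and single libraries stand far above their group, as for Cxcl1 (up to 161 CPM) and Cxcl13 (up to 21.1 CPM).

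Some features of the libraries touch the results below. Libraries held between 32025244 and 57151736 counts (median 38663519). The labels hold 3 patterns of library names. Most libraries of 2 and 10 months and all wild types of 6 months carry a D7 code, and 8 libraries of 2 months (2 of them wild types) and 5 of 10 months (1 of them a wild type) do not. All knock-in libraries of 6 months follow a pattern of their own, so that pattern cannot be told apart from knock-in against wild type at 6 months, or from 6 against 2 months in the knock-in lines. Of 84 libraries labelled male, 1 (Q80 M5 at 2 months) had 0 CPM of Y-linked genes, against at least 104 CPM in the others. Htt itself, counted over both alleles, averaged 29.7 ± 3.24 (SD) CPM in Q20 and 21.5 ± 3.18 CPM in Q175 at 2 months, 31.6 ± 2.75 and 21.3 ± 0.953 CPM at 6 months, and 29 ± 4.75 and 18.3 ± 3.93 CPM at 10 months (n = 8 per group). Liver markers were abundant, with a summed level of 9 hepatocyte genes from 73153 to 154196 CPM, and 16 of 16 Kupffer cell and macrophage markers were measured, with a sum from 157 to 1417 CPM.

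At 6 months Cxcl13 and Il1b had a higher median in Q20 than in each longer line. Against Q20, Cxcl13 passed the test in every longer line but Q80, and Il1b passed in Q92 and Q175 only. They were also the 2 of the 7 genes with a negative slope on repeat length that passed. Without the Q20 libraries both slopes stayed negative, and neither gene passed. Cxcl13 lay at 1.81 CPM in the lowest, 3.40 in the median and 19.3 in the highest of the 8 Q20 libraries of 6 months. In Q175 the lowest, median and highest libraries were at 0.419, 1.58 and 2.21 CPM. All 8 Q175 libraries thus lay below the Q20 median, while the lowest Q20 libraries overlapped the highest of Q175. The slope over the 6 knock-in lines was −1.25 ± 0.25 (SE) on the log2 scale per 100 repeats (adjusted p = 0.00284), and the fold of Q175 over Q20 was −1.94 ± 0.43 on the log2 scale (adjusted p = 0.00342), a level 0.261 times as high. Here and below adjusted p-values come from edgeR's quasi-likelihood test with Benjamini-Hochberg adjustment across every gene tested, and a gene passed below 0.05. Over all genes tested, 6.27% passed for the slope at 6 months and 10.9% for Q175 against Q20.

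Il1b was at 1.71, 5.24 and 14.5 CPM in the lowest, median and highest Q20 libraries of 6 months and at 0.303, 2.23 and 3.38 CPM in those of Q175. The highest Q175 library again lay below the Q20 median, with overlap at the low end of Q20. Its slope was −0.94 ± 0.22 on the log2 scale per 100 repeats (adjusted p = 0.0073) and its fold of Q175 over Q20 −1.56 ± 0.37 (adjusted p = 0.00605). The intermediate lines did not form a graded order for either gene. The medians of Cxcl13 were 1.65 CPM in Q80, 1.40 in Q92, 2.15 in Q111 and 1.73 in Q140, and those of Il1b were 2.90, 2.29, 2.48 and 2.20 CPM. In Q20 both genes stood above all longer lines by their median, and the lines from Q80 to Q175 lay within a narrow range.

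**Figure D2:**
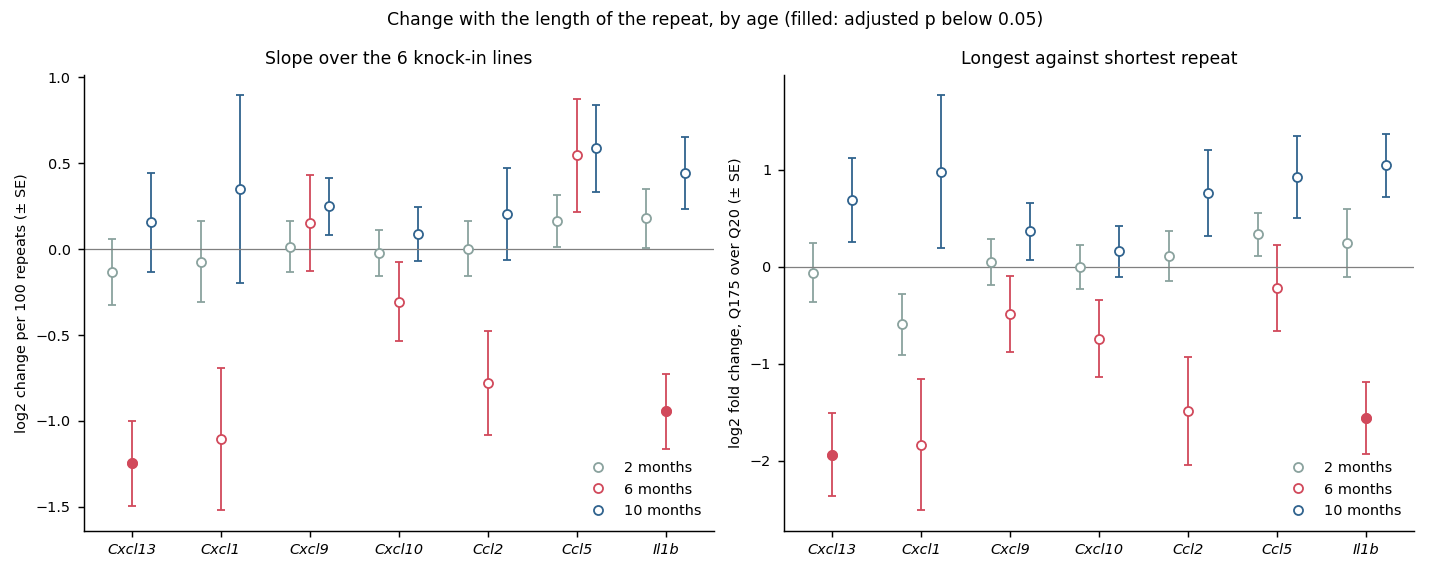
Log2 slope per 100 CAG repeats over the 6 knock-in lines, and log2 fold of Q175 over Q20, with SE, for each gene at 2, 6 and 10 months; filled points have an adjusted p below 0.05. Cxcl13 (−1.25) and Il1b (−0.94) are filled at 6 months, and no point is filled at 2 or 10 months.

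Within Q20 at 6 months the females carried the high values. Cxcl13 was at 19.3, 4.15, 4.69 and 13.2 CPM in the females F1 to F4, and at 2.66, 2.05, 2.24 and 1.81 CPM in the males M1 to M4. Il1b was at 14.5, 5.63, 5.52 and 8.75 CPM in the same females and at 3.63, 4.96, 1.71 and 2.21 CPM in the males. The sexes did not overlap for either gene in this group, and F1 and F4 were the highest 2. Without F1, F3 and F4 the slope was −0.54 for Cxcl13 (adjusted p = 0.364) and −0.63 for Il1b (adjusted p = 0.261), and neither passed. These females held the highest Cxcl13 of Q20, so leaving them out lowers Q20 by construction, and F2 is then its only female. With any single Q20 or Q175 library left out, both slopes still passed (edgeR, adjusted p up to 0.0202 for Cxcl13 and 0.0404 for Il1b). Without all Q20 libraries the slopes over the other 5 lines were −0.68 ± 0.36 (adjusted p = 0.395) and −0.59 ± 0.36 (adjusted p = 0.474). Their difference from the slopes over all lines was not tested. In males alone they were −0.52 (adjusted p = 0.494) and −0.67 (adjusted p = 0.328), while in females alone both slopes still passed. The male median of Cxcl13 was 2.15 CPM in both Q20 and Q111.

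The summed level of the 16 Kupffer cell and macrophage markers was also higher in Q20 than in Q175 by its mean. It ran from 467 to 1417 CPM in Q20 at 6 months (851 ± 376, SD, n = 8), from 157 to 672 CPM in Q175 (472 ± 207) and from 289 to 941 CPM in the wild type. Of the 56 libraries of 6 months, 3 stood above the rest, Q20 F1 (1204 CPM), F3 (1234 CPM) and F4 (1417 CPM), which are the 3 females left out above, and the next was at 941 CPM. At the other end 2 libraries lay below 230 CPM, Q175 M4 (157) and M3 (226), and these had the lowest Il1b of Q175, 0.524 and 0.303 CPM. High Cxcl13 did not always go with a high sum. Q80 M2 of 6 months had 10.2 CPM of Cxcl13, while the highest sum in Q80 was 654 CPM. For Q175 against Q20, 14 of the 16 markers fell, with a median log2 fold of −0.82 over the list against −0.01 over all genes. Among them were the lysozyme gene Lyz2 (−0.95, adjusted p = 0.00326), the macrophage growth factor receptor Csf1r (−1.06, adjusted p = 0.00439), the F4/80 gene Adgre1 (−1.27, adjusted p = 0.00442) and the Kupffer cell receptor Timd4 (−1.15, adjusted p = 0.00455). Their part in the lower Cxcl13 and Il1b was not tested. The genes of this list and of the lists below were tested with all libraries only, and not without Q20 F1, F3 and F4.

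**Figure D3:**
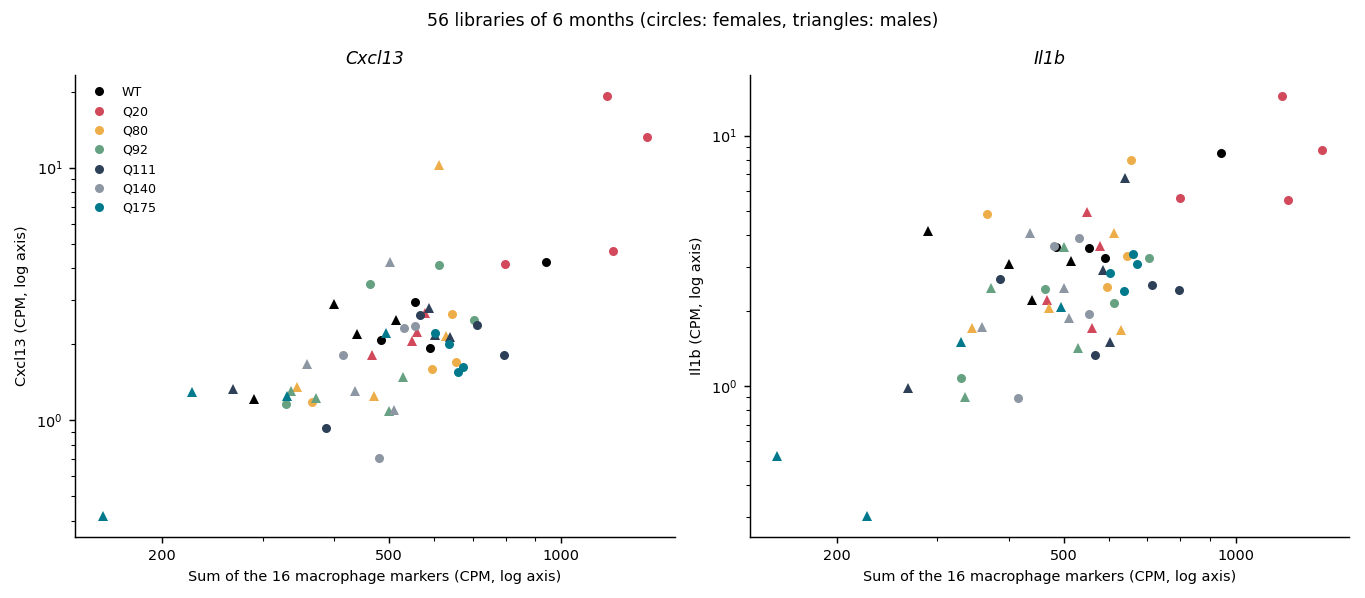
Cxcl13 and Il1b (CPM, log axes) against the summed level of 16 Kupffer cell and macrophage markers (CPM, log axis) in the 56 libraries of 6 months, 1 point per library (colours: genotypes, circles: females, triangles: males). The 3 libraries farthest to the right, at 1204 to 1417 CPM, are Q20 F1, F3 and F4, and the 2 below 230 CPM are the Q175 males M3 and M4.

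Among other leukocytes, most neutrophil markers and some monocyte markers fell in Q175 against Q20 at 6 months, with 10.9% of all genes past the threshold. Of 8 neutrophil markers tested 6 fell, among them the granulocyte receptor Csf3r (−1.0, adjusted p = 0.00172), Retnlg (−1.90, adjusted p = 0.00396), the gelatinase Mmp9 (−1.03, adjusted p = 0.00776) and the granule gene Ngp (−2.61, adjusted p = 0.00885). Their sum ran from 8.99 to 117 CPM in Q20 and from 4.37 to 31.5 CPM in Q175. Most of it was Lcn2, which hepatocytes also express in the acute phase, and without Lcn2 the sums ran from 4.43 to 16.8 CPM in Q20 and from 2.75 to 8.63 CPM in Q175. Of the 13 listed 6, among them Ngp and the defining granule genes Elane and Mpo, averaged under 0.1 CPM. Ngp averaged 0.063 and Retnlg 0.165 CPM over all libraries, so their folds rest on very few reads. Of 10 monocyte markers 3 fell, Itgam (−1.48, adjusted p = 0.000256), Plac8 (−0.56, adjusted p = 0.0236) and Ly6c2 (−0.74, adjusted p = 0.0436). Of the 13 T cell, 6 NK cell and 11 B cell markers tested 0 passed in edgeR, with 3, 0 and 1 of them at an unadjusted p below 0.05 (these lists were not tested in DESeq2). Of 12 sinusoidal endothelial markers 4 fell, among them the scavenger receptor Stab2 and the mannose receptor Mrc1, as did 2 of 11 dendritic cell and 3 of 15 stellate cell and fibroblast markers. The part of these cells in the results was not tested either.

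Genes that act with Il1b fell with it in part. Of 18 tested genes of the IL-1 family, the inflammasome and IL-1 signalling, 5 fell in Q175 against Q20 at 6 months and 0 rose, with a median log2 fold of −0.27. They were the inflammasome sensors Nlrc4 (−0.91, adjusted p = 0.00615) and Nlrp3 (−0.75, adjusted p = 0.017), the antagonist Il1rn (−1.14, adjusted p = 0.0091), the related cytokine Il1a (−0.94, adjusted p = 0.0168) and the signalling brake Irak3 (−0.83, adjusted p = 0.0216). Of 17 NF-kB response genes 5 fell, among them Csf1 (−0.55, adjusted p = 0.0179), Nfkbie (−0.46, adjusted p = 0.02), Vcam1 (−0.68, adjusted p = 0.0306) and Relb (−0.61, adjusted p = 0.0359). Of 17 interferon gamma response genes 2 fell, a share near the 10.9% of all genes, the transcription factor Irf8 (−0.58, adjusted p = 0.0057) and the checkpoint ligand Cd274 (−0.80, adjusted p = 0.0291). All calls in these 3 lists were falls, and most of their genes did not pass. Whether these calls hold without Q20 F1, F3 and F4 was not tested.

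Few of the other ligands and of the receptors passed, in numbers near the 10.9% of all genes. Of 9 other chemokines of the CXC and related classes 1 fell, Cxcl16 (−0.48, adjusted p = 0.013), and of 10 other CC chemokines 1 fell, the macrophage chemokine Ccl6 (−0.83, adjusted p = 0.0053). Of the 8 tested receptors of the 7 proteins 1 rose, the co-receptor Il1rap (0.23, adjusted p = 0.0264). Of 12 other chemokine receptors 2 fell, Ccrl2 (−0.59, adjusted p = 0.0117) and the Cxcl12 receptor Cxcr4 (−0.66, adjusted p = 0.0371).

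The remaining 5 of the 7 genes did not pass along the repeat length at 6 months. Cxcl1 had a slope of −1.11 ± 0.41 (adjusted p = 0.097) and Ccl2 of −0.78 ± 0.30 (adjusted p = 0.111), both with an unadjusted p below 0.05. The slopes of Cxcl10 (−0.31 ± 0.23, adjusted p = 0.459), Cxcl9 (0.15 ± 0.28, adjusted p = 0.805) and Ccl5 (0.54 ± 0.33, adjusted p = 0.343) lay closer to 0 for their SE. In Q175 against Q20, Cxcl1 was at −1.83 ± 0.68 (adjusted p = 0.0678) and Ccl2 at −1.49 ± 0.56 (adjusted p = 0.0735), and both passed in DESeq2 (adjusted p = 0.0386 and 0.0364). Ccl2 passed in 5 of 12 alternatives, with DESeq2, limma (0.0476), the replicate block (0.035), the 2 groups alone (0.0141) and without WT M2, Q20 M4 and Q92 M2 (0.0208), and its slope passed without Q140 F2 and M3 (−0.98, adjusted p = 0.0308). The Cxcl1 fold rests on few libraries: it ranged from −2.10 to −0.88 when each Q20 or Q175 library was left out in turn. Q20 M4 alone held 111 CPM of Cxcl1, against a group median of 6.46 CPM.

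Each longer line was also set against Q20 at 6 months. In Q92, where 18% of all genes passed, Cxcl13 (−1.60 ± 0.41, adjusted p = 0.00621) and Il1b (−1.38 ± 0.37, adjusted p = 0.00791) fell. In Q111 (1.24% of genes) Cxcl13 fell by 1.55 ± 0.42 (adjusted p = 0.0478), a call that 7 of 12 alternatives did not give, among them edgeR without the filter on low counts (adjusted p = 0.0552). Cxcl1 had a larger fold in Q111, −2.41 ± 0.70, but did not pass (adjusted p = 0.0627). In Q80 (9.3% of genes) 0 of the 7 passed in edgeR and in DESeq2, and 1, Cxcl13 (−1.05 ± 0.42, adjusted p = 0.0945), had an unadjusted p below 0.05. In Q140 (5.98% of genes) Cxcl13 fell (−1.62 ± 0.42, adjusted p = 0.0149) and Ccl5 rose (1.48 ± 0.39, adjusted p = 0.0178). All of these comparisons share the Q20 libraries, and without Q20 F1, F3 and F4 the count of the 7 genes that passed was 0 in each of these lines.

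The rise of Ccl5 in Q140 came from 2 libraries. Q140 M3 had 6.06 and F2 5.91 CPM of Ccl5, while the lowest Q140 library was at 0.377 and the median at 0.675 CPM. In Q20 the lowest, median and highest were 0.289, 0.704 and 1.35 CPM, so apart from those 2 the groups overlapped. Cxcl9 was also at its highest level of the series in M3, 43.0 CPM, and at 19.5 CPM in F2. Without F2 and M3 the fold of Ccl5 was −0.21 (adjusted p = 0.65), and the slope of Ccl5 over the 6 lines −0.12 (adjusted p = 0.615). In these 2 libraries the T cell markers summed to 20.1 (M3) and 27.6 CPM (F2), the latter the highest of all libraries, and the NK cell markers to 5.27 and 7.89 CPM. Among the lists in Q140 against Q20, 1 of 13 T cell markers (Cd8a), 2 of 6 NK cell markers (Gzma and Nkg7) and 1 of 17 interferon response genes (Igtp) rose, and 14 of 16 macrophage markers fell. The part of T cells and NK cells in the Ccl5 values was not tested.

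Set against the wild type at 6 months, Cxcl13 rose in Q20 (1.26 ± 0.41, adjusted p = 0.0141), where 32.2% of all genes passed. The 8 wild types lay at 1.22 to 4.24 CPM with a median of 2.34, inside the range of Q20. Without Q20 F1, F3 and F4 the fold was 0.10 (adjusted p = 0.894). In Q175 against the wild type (25.9% of genes) Ccl2 (−1.65 ± 0.55, adjusted p = 0.0214) and Il1b (−1.02 ± 0.38, adjusted p = 0.0387) fell, and Cxcl13 did not pass (−0.68 ± 0.44, adjusted p = 0.263). Ccl2 was at 0.302, 0.926 and 4.89 CPM in the lowest, median and highest wild types and at 0.131, 0.437 and 0.698 CPM in Q175. Il1b was at 2.21, 3.40 and 8.54 CPM in the wild types. The wild types overlapped Q175 in both genes, and library-name pattern and genotype cannot be told apart in these comparisons.

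At 2 months none of the 7 genes passed in any comparison of genotypes, in edgeR or in DESeq2. The slopes ran from −0.13 ± 0.19 for Cxcl13 to 0.18 ± 0.17 for Il1b, and 0.272% of all genes passed. Against Q20, the shares of genes that passed were 0.0991% in Q80, 0% in Q92, 0% in Q111, 0% in Q140 and 0.31% in Q175. They were 0% for Q20 and 0.595% for Q175 against the wild type. At an unadjusted p below 0.05 there were 2 cases, Ccl5 in Q92 (0.71 ± 0.21, adjusted p = 0.47) and Cxcl1 in Q111 (0.70 ± 0.29, adjusted p = 0.823). The 95% intervals of Q175 over Q20 at 2 months ran from −0.66 to 0.54 for Cxcl13 and from −0.45 to 0.94 for Il1b on the log2 scale, so falls as large as those fitted at 6 months lay outside them.

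At 10 months none of the 7 passed along the repeat length either, with 0.595% of all genes past the threshold and 0 of the 7 in DESeq2. DESeq2 gave no adjusted p for Cxcl1 in this test. Il1b (0.44 ± 0.21, adjusted p = 0.447) and Ccl5 (0.59 ± 0.25, adjusted p = 0.37) had an unadjusted p below 0.05, with positive slopes. Il1b was at 0.797, 2.03 and 3.08 CPM in the lowest, median and highest Q20 libraries and at 1.97, 3.02 and 12.9 CPM in those of Q175, with overlap. Its fold was 1.04 ± 0.33 (adjusted p = 0.103). The highest of these, Q175 F3, held 799 CPM of skeletal muscle markers, which had a median of 0.566 CPM over all libraries. In Q175 against Q20, 1.26% of genes passed, and Ccl5 (0.92 ± 0.42, adjusted p = 0.313) joined Il1b at an unadjusted p below 0.05.

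In the other lines at 10 months the count was 0 as well, in edgeR and in DESeq2. In Q80 (0.0127% of genes) Cxcl13 (0.99 ± 0.44), Ccl2 (0.98 ± 0.45) and Il1b (1.04 ± 0.34) had an unadjusted p below 0.05, with adjusted p-values of 0.66, 0.675 and 0.374. In Q92 (4%) Cxcl13 (1.02 ± 0.43, adjusted p = 0.168) and Il1b (0.76 ± 0.34, adjusted p = 0.197) did so, and in Q111 (1.11%) Cxcl1 (1.91 ± 0.76, adjusted p = 0.255) and Ccl2 (0.92 ± 0.44, adjusted p = 0.377). In Q140 (0.00637%) there were 0 such genes. Against the wild type the shares of all genes were 0.0127% in Q20 and 1.38% in Q175, with Ccl2 in Q20 (−1.01 ± 0.44, adjusted p = 1) at an unadjusted p below 0.05 and 0 such genes in Q175. All of these folds but the last pointed upward.

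The difference between ages was tested as the change of the slope itself. From 6 to 10 months the slope rose by 1.41 ± 0.35 for Cxcl13 (adjusted p = 0.00642) and by 1.39 ± 0.29 for Il1b (adjusted p = 0.00102), with 4.1% of all genes past the threshold. The slopes of Cxcl13 were −1.25 at 6 and 0.16 ± 0.29 at 10 months. Without Q20 F1, F3 and F4 of 6 months the change for Cxcl13 was 0.71 (adjusted p = 0.521), and Il1b still passed. From 2 to 6 months 0 of the 7 passed (0.229% of genes) in edgeR and DESeq2, with Il1b at −1.12 ± 0.29 (adjusted p = 0.0644), Cxcl13 at −1.12 ± 0.37 (adjusted p = 0.159) and Ccl2 at −0.78 ± 0.39 (adjusted p = 0.4) the 3 genes with an unadjusted p below 0.05. From 2 to 10 months 0 passed in either tool (0.972% of genes), and 0 had an unadjusted p below 0.05.

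Cxcl9 and Ccl5 were higher in females than in males at every age, and Cxcl10 at 2 and 10 months. Cxcl9 lay at 6.19, 12 and 27.5 CPM in the lowest, median and highest of the 27 females of 2 months and at 3.78, 5.94 and 12 CPM in the 29 labelled males. The highest of these males was Q80 M5, the library without Y-linked reads, which was kept under its label, and without it the same 5 genes passed at 2 months (Cxcl9 at 1.01, adjusted p = 1.17e-09). At 6 months the same values were 3.37, 7.86 and 24.3 CPM in 28 females and 2.29, 4.28 and 43.0 CPM in 28 males, and at 10 months 5.0, 8.05 and 25.8 CPM in 28 females and 2.54, 4.26 and 13.4 CPM in 27 males. The sexes overlapped, but the female median was the higher in 7 of 7 genotypes at each age. The log2 fold of females over males was 0.98 ± 0.13 (adjusted p = 3.87e-09), 0.75 ± 0.21 (adjusted p = 0.0018) and 1.08 ± 0.16 (adjusted p = 1.49e-07) at 2, 6 and 10 months.

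Ccl5 followed the same pattern. Its medians were 0.875 CPM in females and 0.421 in males at 2 months, 0.874 and 0.434 at 6 months, and 0.958 and 0.402 at 10 months. The female median was higher in 7 of 7 genotypes at each age, and the folds were 1.12 ± 0.12 (adjusted p = 2.05e-11), 0.88 ± 0.23 (adjusted p = 0.00109) and 0.99 ± 0.24 (adjusted p = 0.000458). Cxcl10 had medians of 3.31 and 1.85 CPM at 2 months, 2.33 and 1.48 at 6 months, and 2.46 and 1.34 at 10 months. Its folds were 0.78 ± 0.12 (adjusted p = 2.37e-07) and 0.95 ± 0.15 (adjusted p = 1.88e-07) at 2 and 10 months, and 0.36 ± 0.21 at 6 months, which did not pass (adjusted p = 0.135), although the female median was the higher in 7 of 7 genotypes there too.

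The other genes were less even. Cxcl13 was higher in females at 2 months (0.50 ± 0.17, adjusted p = 0.00826) and 10 months (0.63 ± 0.23, adjusted p = 0.0176), while its fold of 0.43 ± 0.23 at 6 months did not pass (adjusted p = 0.11). Il1b was higher in females at 6 months (0.60 ± 0.20, adjusted p = 0.00843) and 10 months (0.50 ± 0.18, adjusted p = 0.0134), with 0.34 ± 0.19 at 2 months (adjusted p = 0.13). Ccl2 passed at 2 months alone (0.34 ± 0.14, adjusted p = 0.0296), and its fold was −0.41 ± 0.29 at 6 months and 0.32 ± 0.23 at 10 months. Cxcl1 went the other way. Its medians were 3.67 CPM in females and 4.85 in males at 6 months, and 3.45 and 6.05 at 10 months, with male highs of 111 and 161 CPM against female highs of 16.9 and 35.7 CPM. It was lower in females at 6 months (−1.48 ± 0.38, adjusted p = 0.000769) and 10 months (−1.12 ± 0.45, adjusted p = 0.0314), with −0.21 ± 0.16 at 2 months (adjusted p = 0.287). The call at 10 months was lost without the library Q111 M1 (−0.63, adjusted p = 0.153) and in limma on log2 FPKM (−0.67, adjusted p = 0.0795).

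Most genes of the liver differed between the sexes. At 2 months 5 of the 7 were higher in females, against 57.6% of all genes past the threshold in either direction and 29.8% higher in females. At 6 months 3 were higher and 1 lower, against 60.9% of all genes in either direction and 31.4% higher. At 10 months 5 were higher and 1 lower, against 57.2% in either direction and 30% higher.

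**Figure D4:**
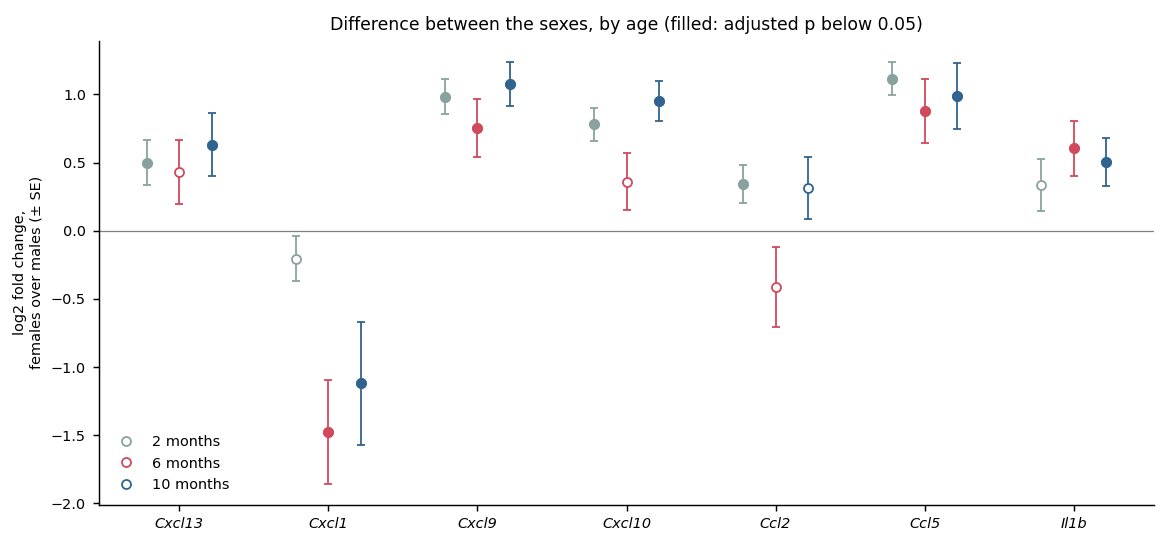
Log2 fold of females over males with SE for each gene at 2, 6 and 10 months; filled points have an adjusted p below 0.05 and values above 0 are higher in females. Cxcl9 and Ccl5 lie near 1 at each age, and Cxcl1 is below 0 at each age.

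The receptors and the marker lists moved with sex as well. The shared receptor of Cxcl9 and Cxcl10, Cxcr3, was higher in females by 1.0 ± 0.12, 1.08 ± 0.11 and 1.33 ± 0.15 at the 3 ages (adjusted p = 1.7e-10, 2.28e-12 and 9e-11). The IL-1 receptor genes Il1r1 and Il1rap were lower in females at each age. All 6 NK cell markers tested were higher in females at each age, with a list median of 1.17, 1.30 and 1.22, among them Gzmb (1.34, 1.28 and 1.53) and Ncr1 (1.46, 1.82 and 1.53). Of the T cell markers 10 of 11, 11 of 13 and 11 of 13 were higher and 1, Cd4, lower. Of the macrophage markers 15, 16 and 14 of 16 were higher, with medians of 0.44, 0.52 and 0.40. Of the interferon gamma response genes 15, 14 and 14 of 17 were higher, led by Gbp3 (1.52, 1.86 and 1.84). Over all genes the median was between 0.01 and 0.02 at the 3 ages. The part of these cells and of the interferon response in the differences of the 7 genes was not tested.

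The slope along the repeat was not shown to differ between the sexes. In the test of that difference 0 of the 7 passed at 2 months (0% of genes), 6 months (0.226%) and 10 months (0.173%) in edgeR, and 0 in DESeq2. DESeq2 gave no adjusted p for 5 of the 7 at 6 months and for Cxcl1 at 10 months. At an unadjusted p below 0.05 there were 0 at 2 and 10 months and 2 at 6 months, Cxcl13 and Cxcl1.

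With age, Cxcl1 and Cxcl13 rose and the interferon-induced Cxcl9 and Cxcl10 fell in the knock-in lines. Between 2 and 10 months Cxcl1 rose by 1.51 ± 0.29 (adjusted p = 1.66e-05), Cxcl13 by 0.92 ± 0.19 (adjusted p = 6.89e-05) and Ccl2 by 0.55 ± 0.20 (adjusted p = 0.035). Cxcl9 fell by 0.48 ± 0.14 (adjusted p = 0.00551) and Cxcl10 fell by 0.39 ± 0.13 (adjusted p = 0.018). Ccl5 (0.30 ± 0.18, adjusted p = 0.244) and Il1b (0.24 ± 0.16, adjusted p = 0.28) did not pass. These are 5 of 7 genes against 22.8% of all genes. The call of Ccl2 was lost without the library Q111 M1 of 10 months (0.47, adjusted p = 0.0745) and without the libraries whose names lack a D7 code (0.48, adjusted p = 0.102). Without the latter Cxcl1 rose by 0.94 ± 0.28 (adjusted p = 0.00917). Over all genotypes the medians of 2, 6 and 10 months were 3.05, 4.16 and 4.63 CPM for Cxcl1, 1.54, 2.07 and 2.39 CPM for Cxcl13 and 8.79, 5.68 and 5.99 CPM for Cxcl9, with wide overlap between ages.

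Marker lists moved with age too. Between 2 and 10 months in the knock-in lines 8 of 10 neutrophil, 7 of 10 monocyte and 10 of 11 B cell markers rose and 0 fell, and 2 of 16 macrophage markers (Lyz2 and Marco) rose. In the same comparison, where 22.8% of all genes passed in either direction, 7 of 8 bile duct, 4 of 6 red cell and 4 of 4 skeletal muscle markers rose. Single libraries weigh on the last 2 lists. Muscle markers in Q175 at 10 months had a mean sum of 103 CPM but a median of 0.670, with Q175 F3 at 799 CPM. Red cell markers had a mean sum of 1267 CPM there but a median of 332, with Q175 M4 at 7875 CPM. These calls were not tested without those libraries. Of 17 interferon response genes 6 fell, among them Gbp4, Irgm1 and Gbp3, and 2 of 7 NK cell markers fell. Of 10 other CXC and related chemokines 7 rose, among them Cxcl5 and Cxcl14. The part of these cells in the change of the 7 genes was not tested.

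At 6 against 2 months in the knock-in lines 53.1% of all genes passed, and age and library-name pattern cannot be told apart. Cxcl1 (1.34 ± 0.29, adjusted p = 4.2e-05), Ccl2 (0.66, adjusted p = 0.00237) and Cxcl13 (0.57 ± 0.19, adjusted p = 0.00776) rose and Cxcl9 fell (−0.43 ± 0.14, adjusted p = 0.00482). Cxcl13 did not pass without Q20 F1, F3 and F4 (0.30, adjusted p = 0.141), nor Ccl2 without WT M2, Q20 M4 and Q92 M2 of 6 months (0.37, adjusted p = 0.0577). The wild types were tested alone. There Cxcl13 rose by 0.80 ± 0.20 from 2 to 6 months (adjusted p = 0.0444, 1.54% of genes) and by 0.79 ± 0.21 from 2 to 10 months (adjusted p = 0.0485, 1.62% of genes). Cxcl13 was at 0.856, 1.44 and 1.96 CPM in the lowest, median and highest wild types of 2 months, and at 1.22, 2.34 and 4.24 CPM at 6 and 1.56, 2.55 and 3.53 CPM at 10 months. From 6 to 10 months in the wild type 0 of the 7 passed in edgeR or DESeq2 and 0 had an unadjusted p below 0.05, against 0.169% of genes. The wild-type calls lie close to the threshold, and without the 3 wild types whose names lack a D7 code both were lost (0.80, adjusted p = 0.109, at 6 and 0.64, adjusted p = 0.229, at 10 against 2 months).

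Cxcl1 was the gene with the most libraries far above the rest. A library was counted as high when it exceeded 5 times the median of its age and sex. By this rule 12 libraries were high for Cxcl1, 10 of them male and 2 female, with 4 wild types and 8 knock-ins, from 6 of the 7 genotypes. None was 2 months old, and 6 each were 6 and 10 months old. Of the 6 of 10 months 3 (Q111 M1, WT M3 and Q92 F1) are among the 5 libraries of that age whose names lack a D7 code, and the part of the name pattern was not tested for single libraries. The highest were Q111 M1 of 10 months (161 CPM, 26.6 times the median), Q20 M4 (111 CPM, 22.8 times), Q92 M2 (99.8 CPM, 20.6 times) and WT M2 (77.0 CPM, 15.9 times) of 6 months. For Ccl2 4 libraries were high, and all 4 were those just named, with 2.65, 2.74, 5.71 and 4.89 CPM. Q92 M2 of 6 months was also the 1 library high for Cxcl10 (7.81 CPM).

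For the other genes fewer libraries were high. Cxcl13 had 4: Q20 F1 and F4 of 6 months, Q80 M2 of 6 months (10.2 CPM) and Q92 F1 of 10 months (21.1 CPM), the last of which was also high for Cxcl1 (35.7 CPM) and held 957 CPM of macrophage markers and 188 CPM of neutrophil markers, of which 179 CPM were Lcn2, a gene that hepatocytes also express in the acute phase. Ccl5 had 3, Q140 M3 and F2 of 6 months and Q175 M4 of 10 months (4.50 CPM), the last with 7875 CPM of red cell markers, the highest sum of the series. Cxcl9 had 1, Q140 M3, and Il1b had 0. In all 18 libraries were high for at least 1 gene, 13 of them male, 11 of 6 months and 7 of 10 months.

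Across libraries the genes moved in pairs. Levels were taken as log2(CPM + 0.5) and centred on genotype and sex within an age, and 63 correlations were computed (21 pairs at 3 ages, 56, 56 and 55 libraries), with p from 100000 permutations and adjusted over the 63. Cxcl9 and Cxcl10 had Pearson's r of 0.66, 0.69 and 0.61 at 2, 6 and 10 months, with Spearman's rho of 0.69, 0.76 and 0.48 (permutation p for r of 1e-05, 1e-05 and 9e-05, adjusted p = 0.000126, 0.000126 and 0.000945, and for rho adjusted p = 0.000158, 0.000158 and 0.00979). The value 1e-05 is the smallest these permutations can give. Without the 2 libraries farthest from the median of Cxcl9, r was 0.64, 0.65 and 0.52. The relation of this pair thus passed at all 3 ages. Whether the promoter letters or the neighbouring position of the genes have a part in it was not tested.

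Cxcl9 and Ccl5 had r of 0.52, 0.63 and 0.71, with rho of 0.50, 0.52 and 0.60 (permutation test, adjusted p for r of 0.00145, 0.00155 and 0.000126, and for rho of 0.00567, 0.00284 and 0.00063). Without the 2 farthest libraries r was 0.51, 0.47 and 0.66. Cxcl10 and Ccl2 had r of 0.51, 0.78 and 0.58 and rho of 0.51, 0.66 and 0.61 (permutation test, adjusted p for r of 0.00099, 0.000126 and 0.000126, and for rho of 0.00284, 0.000158 and 0.000158), with r of 0.51, 0.68 and 0.54 without the farthest 2. Cxcl1 and Ccl2 had r of 0.31, 0.67 and 0.53 and rho of 0.31, 0.45 and 0.41 (permutation test, adjusted p for r of 0.136, 0.00112 and 0.0406, and for rho of 0.134, 0.0289 and 0.0643). Without the farthest 2 r was 0.33, 0.60 and 0.49, so the relation at 6 and 10 months did not rest on those 2 alone, though the rank correlation at 10 months did not pass.

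Cxcl13 and Il1b, the pair whose negative slopes passed at 6 months, were only loosely related in these centred levels. Their r was 0.24, 0.33 and 0.42 and their rho 0.32, 0.27 and 0.47 (permutation test, adjusted p for r of 0.128, 0.0736 and 0.0399, and for rho of 0.0643, 0.162 and 0.013). Without the 2 libraries farthest from the median of Cxcl13 r was 0.34, 0.22 and 0.49. The relation passed at 10 months only, and the difference between ages was not tested.

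**Figure D5:**
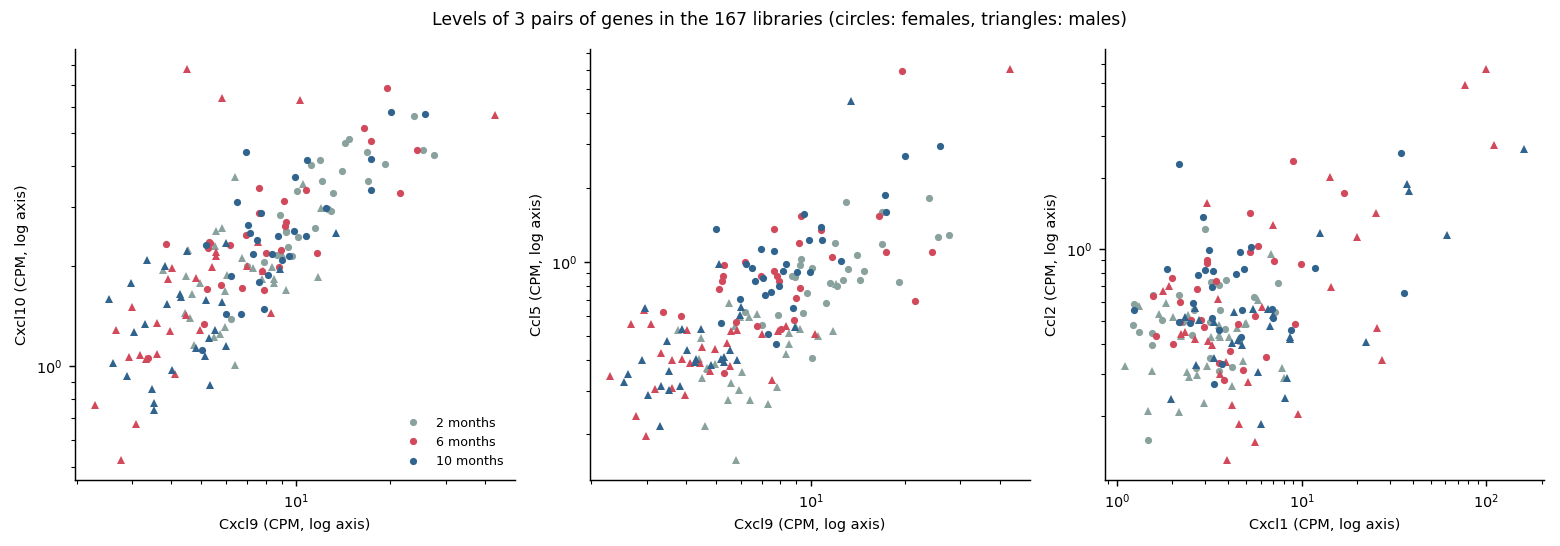
Levels of 3 pairs of genes in every library (CPM, log axes), 1 point per library (colours: ages, circles: females, triangles: males): Cxcl9 with Cxcl10, Cxcl9 with Ccl5, and Cxcl1 with Ccl2. In the last panel the 4 libraries highest in Cxcl1 (77.0 to 161 CPM) also lie high in Ccl2 (2.65 to 5.71 CPM).

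For each gene the 3 genes of most similar pattern were found by Spearman correlation over all libraries, among 15638 genes, after centring on age, sex and library-name pattern. These values are descriptions, since all points share the libraries. For Cxcl13 they were the macrophage lysozyme gene Lyz2 (0.77), the sialic acid lectin Siglece (0.73) and properdin, Cfp (0.71). For Il1b they were its neighbour in the cytokine family Il1a (0.71), the immediate early gene Nr4a1 (0.66) and Cd83 (0.63). Cxcl1 was most like the NF-kB regulator Nfkbiz (0.67), Cd302 (0.63) and the cytochrome Cyp3a13 (0.60). Cxcl9 was most like the guanylate-binding protein gene Gbp2 (0.73), the GTPase gene Tgtp1 (0.73) and the MHC class II gene H2-Aa (0.70).

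Cxcl10 was most like Cxcl9 (0.64), Gm12250 (0.61) and Tgtp1 (0.59), and Ccl2 was most like Cxcl10 (0.51), the NF-kB subunit gene Relb (0.50) and Gvin1 (0.47). Ccl5 was most like Fmnl1 (0.58), the MHC class II gene H2-Ab1 (0.58) and Rasal3 (0.57). The likeness was thus closest for Cxcl13 and loosest for Ccl2, whose counts are the lowest of the 7.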

How the data were processed

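PolyA RNA from flash-frozen liver was sequenced, per the labels' protocols, with base calling by CASAVA 1.8.2, per the submitters' processing notes. The aligner, the counting tool and the genome build were not given in the sources used here. As deposited by the authors, the data are 1 table of estimated counts per gene and 1 table of FPKM values for all libraries. Of the deposited estimated counts 14.1% were not whole, and they were rounded first. Of the 39179 gene IDs, 37607 matched a symbol in GENCODE M21. Total counts ran from 32025244 to 57151736 per library. The 7 genes rest on few of these, with median counts from 19 (Ccl2) to 271 (Cxcl9). No 2 libraries held identical values.

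Counts were scaled by TMM, filtered with filterByExpr and tested with edgeR's quasi-likelihood test (edgeR 4.0.16, R 4.3.3), with sex as a term. Fits within an age gave each line against Q20, Q20 and Q175 against the wild type, females against males, and a slope on repeat length over the 6 knock-in lines. Fits across ages gave the age comparisons and the change of the slope. P-values were adjusted by Benjamini-Hochberg over all genes tested (15137, 15640 and 15689 at 2, 6 and 10 months for the lines), with a threshold of 0.05. The fit was tested on simulated data first. Alternatives were DESeq2 1.42.0, limma 3.58.1 on log2(FPKM + 0.1), RLE scaling, no filter, a robust fit, a replicate block, each sex alone, the 2 groups alone, and left-out libraries. The alternatives cover the 7 genes, while the genes of the lists were tested in the main fits only. Levels are TMM-scaled CPM. The 7 genes and the gene lists were chosen with earlier results of these data known. Besides the 7, up to 4 genes past the threshold with the smallest p were named from each list, and for each of the 7 the 3 genes of most similar pattern. Elane and Mpo fall outside that rule and were named after their values were seen. Results for some genes of the lists are not reported here.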

Additional observations from a re-analysis of the deposited data

Results flagged for a closer look

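Single libraries stood apart from the other 7 (or 6) of their group in 13 of 147 groups of libraries tested on the log2 scale, by the gap to the nearest library over the range of the group. Chance gives about 1 in 20 such groups. For Cxcl13 they were Q111 M1 of 2 months (0.581 CPM, nearest 1.41), Q80 M2 of 6 months (10.2, nearest 2.62), Q175 M4 of 6 months (0.419, nearest 1.25) and Q92 F1 of 10 months (21.1, nearest 4.08). For Cxcl1 they were Q175 M1 of 6 months (14.5 CPM, nearest 4.22), Q111 M1 of 10 months (161, nearest 6.99) and Q175 F1 of 10 months (34.7, nearest 7.0). Ccl2 stood apart in Q92 M2 of 6 months (5.71 CPM, nearest 0.524) and Q111 M1 of 10 months (2.65, nearest 0.996). Cxcl9 did so in Q92 F4 of 6 months (21.4 CPM, nearest 6.93) and Ccl5 in Q140 F4 of 10 months (2.94, nearest 1.01). Il1b did so in the wild-type F4 of 6 months (8.54 CPM, nearest 4.17) and in Q20 M3 of 10 months (0.797, nearest 1.79).

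The slope along the repeat length differed between 6 and 10 months, by the test of the change itself, for Cxcl13 (1.41 on the log2 scale per 100 repeats) and Il1b (1.39).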

How the results depend on the processing

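Of the 7 genes, 2 passed along the repeat length at 6 months, and 0 did so without Q20 F1, F3 and F4, in males alone and without the Q20 libraries. Without those females the count was also 0 for Q92, Q111, Q140 and Q175 against Q20 and for Q20 against the wild type at 6 months, and it was 0 in males alone for the same comparisons and for Q175 against the wild type. For the change of the slope from 6 to 10 months it was 1 (Il1b) without them. Females alone gave 1 for Q80 (Cxcl13), 2 for Q111 (Cxcl13 and Il1b) and 0 for Q175 against the wild type. DESeq2 gave 2 for Q111, 4 for Q175 against Q20 (Cxcl13, Il1b, Cxcl1 and Ccl2) and 2 for the wild type at 6 against 2 months. For Q111 the count was 0 with no filter, the robust fit, limma and the 2 groups alone. For Q140 it was 1 in limma and 0 with the 2 groups alone. Limma gave 0 for Q20 and 1 for Q175 against the wild type, and the 2 groups alone 0 for Q20. In the wild type, 10 against 2 months gave 0 with RLE scaling and no filter, and 6 against 2 months 0 with no filter and limma. Left-out libraries chosen after the data were seen gave 0 for Q140 (without Q140 F2 and M3), and, without WT M2, Q20 M4 and Q92 M2, 2 for Q111 and 0 for the wild type at 10 against 2 months. Without the libraries whose names lack a D7 code, also added after the data were seen, the count was 0 for the wild type at 10 against 2 and at 6 against 2 months. The cause of these changes was not tested, and the counts are not set against the share of all genes that passed in the same alternative.

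Some values changed sign. The slope of Cxcl9 at 6 months (0.15) was −0.094 in limma, −0.070 in females alone and −0.27 without Q140 F2 and M3. Without those 2 libraries Ccl5 had a slope of −0.12 (0.54 with them) and a fold of −0.21 in Q140 (1.48 with them). The fold of Ccl5 in Q175 against Q20 at 6 months (−0.22) was 0.11 without Q20 F1, F3 and F4 and 0.015 in males alone. None of these passed. Leaving out each Q20 or Q175 library in turn gave a count of 2 to 2 for the slope and 2 to 3 for Q175 against Q20 at 6 months (Cxcl1 passed without Q20 M1), 0 to 1 for Q175 against Q20 at 10 months (Il1b passed without Q175 F2), and 0 to 0 for both at 2 months and for the slope at 10 months. The slope at 6 months then ran from −1.32 to −0.95 for Cxcl13 and from −1.01 to −0.77 for Il1b.

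The replicate numbers did not pair libraries: the mean correlation of same-numbered libraries was −0.01, 0.04 and 0.00 at 2, 6 and 10 months. With a replicate block the counts at 6 months were 2 for the slope, 0 for Q111, 3 for Q140 and 3 for Q175 against Q20, and 0 for all comparisons of lines at 2 and 10 months. Low counts limit Ccl2 and Ccl5 most, with medians of 19 and 24.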
